A study of Homo sapiens with 10 samples.

Results

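The comparison described here is that of K562 cells treated for 2 h with 1 µM JQ1 against K562 cells treated for 2 h with the solvent DMSO. It rests on 2 of the 10 libraries of the series, 1 for each treatment, and covers the 11797 human genes, of 59204 listed, whose total reads averaged at least 20 over the 10 libraries. K562 is an established human erythroleukaemia line that carries the BCR-ABL fusion. All cells, controls included, had first been given 30 µM 4-thiouridine for 12 h, with fresh medium every 3 h, so that RNA made in that time carried the label. They were then washed and moved to 3 mM uridine together with DMSO, JQ1 or the CDK9 inhibitor AZ-5576, and were collected at 0, 2, 4 and 8 h. Iodoacetamide made the label readable as a sequence change, and libraries were read from the 3′ ends of polyadenylated RNA. To put libraries on 1 scale, the purified RNA received 5% of RNA from fly S2 cells. Levels below are reads per 1000000 fly reads, and ratios are per fly read, unless stated otherwise. Such a level is relative to the mass of purified RNA and not to the number of cells, so fewer RNA molecules per cell and a different mass per cell cannot be told apart.

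JQ1 occupies the acetyl-lysine pockets of BET proteins such as BRD2 and BRD3. These proteins sit on acetylated chromatin at enhancers and promoters and help P-TEFb, the kinase CDK9 with a cyclin T, to release paused RNA polymerase II. HEXIM1 holds a reserve of P-TEFb inactive in a particle with 7SK RNA, and its mRNA is a widely used marker of BET inhibition. In leukaemia cells, BET inhibitors are best known for lowering MYC and genes controlled by large enhancers. At 2 h mainly mRNAs that turn over quickly have had time to follow a change in transcription.

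Both libraries had similar depth, with 12685641 total human reads under JQ1 and 11644394 under DMSO. Of these, 29.09% and 29.11% were labelled. Unlabelled reads are the total less the labelled reads, and they hold RNA older than the pulse, RNA made during the chase and label-free reads of labelled molecules. The library with JQ1 held 7.91 human reads per fly read and the DMSO library 9.64, against 8.18 at 0 h, so the DMSO library is the one farther from the start. Accordingly the median gene had a log2 ratio of JQ1 to DMSO of -0.33 in total RNA, -0.28 in labelled RNA and -0.37 in unlabelled RNA, and 82.4% of the genes were below DMSO. Scaling by TMM, which centres the human genes on each other, put the total median at 0.01 and left 49.0% of the genes below DMSO. A JQ1-specific loss of RNA and a difference in the amount of fly RNA added cannot be told apart with 1 library a side. Of 16 marker genes of K562, 14 were measured. The sum over all 16 was 11845 per 1000000 human reads under JQ1 and 11581 under DMSO. Of the 14, BCR was past 2-fold lower, with 20 reads under JQ1 and 40 under DMSO. Its log2 ratio was -1.39 (-1.06 with TMM scaling, also past 2-fold), and 5.03% of all genes were lower. Of 23 markers of other cell types, 12 were measured, none was past 2-fold (COL1A1 was, higher, with TMM scaling), and CD3E, GNLY, FCGR3A and VWF had no read in either library. The sum over all 23, again per 1000000 human reads, was 727 under JQ1 and 749 under DMSO. Most of it came from the keratins KRT8, KRT18 and KRT19, which had between 2057 and 3371 reads in each library.

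A gene was counted as past 2-fold when its log2 ratio, with 0.5 reads added to each count, was at least 1 in size and the exact 95% interval of its ratio did not hold equality. The interval is conditional binomial (Clopper-Pearson) and covers counting error only. By this rule 158 genes were higher under JQ1, which is 1.34% of those measured, and 593 were lower, which is 5.03%. With TMM scaling the split was the other way round, with 316 higher and 203 lower, and 361 genes were past 2-fold on both scales in the same direction. In labelled RNA 55 of 8817 genes were higher (0.624%) and 281 lower (3.19%), 3.81% in either direction. In unlabelled RNA 192 of 11066 were higher (1.74%) and 940 lower (8.49%), 10.2% in either direction. The fly genes give a measure of the scatter between these libraries, since they come from 1 pool of RNA. Of 4980 fly genes, 345 (6.93%) passed the same rule, as against 6.37% of the human genes. Among genes with a mean of at least 100 reads the shares were 1.45% of 2069 fly genes, 2.41% of 8203 human genes and 1.16% of the human genes with TMM scaling. In either direction the count is thus close to that of added RNA that no drug had reached, but on the fly scale the directions differed. Lower calls were 5.03% of the human and 2.31% of the fly genes, and higher calls 1.34% and 4.62%. At a mean of at least 100 reads, lower calls were 2.02% and 0.242%, and higher calls 0.390% and 1.21%. With TMM scaling the human genes leaned the same way as the fly genes, with 2.68% higher and 1.72% lower. At a mean of at least 100 reads these shares were 0.792% and 0.366%. The account below rests on named genes, most of them with many reads, on their intervals and on separate later libraries. At a mean of at least 100 reads the fly genes ran from -1.36 to 2.21 on the log2 scale. Above that range lay 2 human genes, EGR1 and GADD45B, on either scale. Below it lay 27 human genes on the fly scale and 8 with TMM scaling. GADD45B reached the mean of 100 reads through the JQ1 libraries and had 32 reads under DMSO at 2 h. Fly genes with a mean of 20 to 100 reads ran from -2.39 to 3.89. The range of the deeper fly genes is thus not a bound at like depth for GADD45B.

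**Figure D1:**
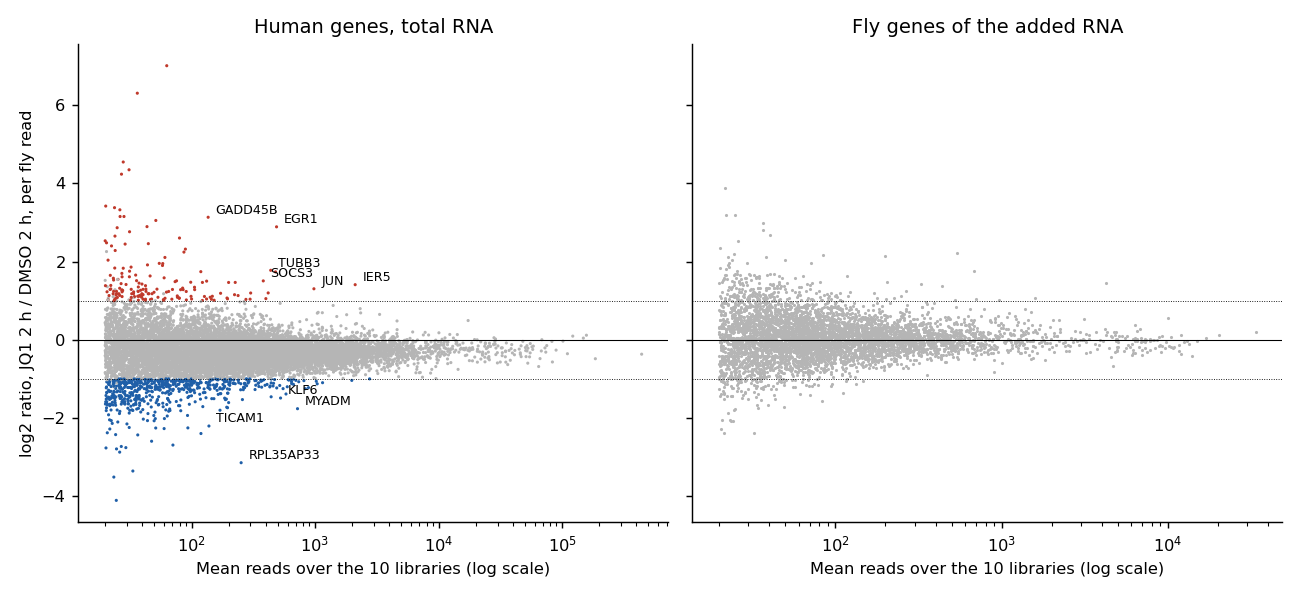
The log2 ratio of total RNA between JQ1 and DMSO at 2 h (vertical axis, per fly read) is plotted against the mean reads of each gene (log scale) for 11797 human genes on the left and 4980 fly genes on the right. Red and blue points passed 2-fold with an interval without equality, dotted lines mark 2-fold, and both panels narrow as reads increase. EGR1 (2.89) and GADD45B (3.13) lie above all fly genes with a mean of at least 100 reads. GADD45B reached that mean through the JQ1 libraries.

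EGR1, an immediate-early zinc finger transcription factor, and GADD45B, a stress-responsive growth-arrest gene, had the highest ratios under JQ1 among genes with a mean of at least 100 reads. EGR1 (chromosome 5, 138465490 to 138469315, GRCh38) had 2755 total reads under JQ1 at 2 h, 280 under DMSO and 73 at 0 h. Its reads were 506 and 543 under JQ1 at 4 and 8 h, 189 and 384 under DMSO, and 41, 38 and 69 with AZ-5576 at 2, 4 and 8 h, so the JQ1 library at 2 h stood above the other 9. The level was 1718 under JQ1, 232 under DMSO and 49.3 at 0 h, a ratio of JQ1 to DMSO of 7.41 (interval 6.55 to 8.41). The ratio was alike in labelled RNA (8.12, interval 6.3 to 10.6) and in unlabelled RNA (7.2, interval 6.25 to 8.32). GADD45B (chromosome 19, 2476122 to 2478259) had 378 reads under JQ1, 32 under DMSO and 7 at 0 h, with a ratio of 8.9 (interval 6.2 to 13.2). Its reads were 482 and 364 under JQ1 at 4 and 8 h, 15 and 63 under DMSO, and 6, 6 and 10 with AZ-5576, so that all 3 JQ1 libraries lay above the other 7. Both genes were thus already higher in DMSO at 2 h than at 0 h, and higher again under JQ1. At the later hours they parted. EGR1 had log2 ratios of 1.00 at 4 h and 0.51 at 8 h, while GADD45B had 4.55 and 2.54. Labelled reads of EGR1 went from 51 at 0 h to 711 under JQ1, a log2 difference of 3.67 per fly read, during a chase without 4-thiouridine. The reads called labelled thus exceeded those present at the end of the pulse.

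RefSeq starts of EGR1 and GADD45B differ by some bases from the GENCODE gene positions given above, and distances here are from the RefSeq starts. The stretches just upstream of the RefSeq starts are shown because they are the promoters of the 2 genes with the highest ratios at this depth. They come from RefSeq (GRCh38.p14), cover the 250 bases before the start on the plus strand, at chr5:138465229-138465478 for EGR1 and chr19:2475877-2476126 for GADD45B, and have the matches to the motifs searched in capitals.
EGR1: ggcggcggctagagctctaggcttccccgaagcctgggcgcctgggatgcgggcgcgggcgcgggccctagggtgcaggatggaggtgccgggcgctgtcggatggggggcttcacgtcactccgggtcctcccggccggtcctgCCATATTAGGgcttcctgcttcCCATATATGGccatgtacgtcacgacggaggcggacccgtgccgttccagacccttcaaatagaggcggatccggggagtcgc
GADD45B: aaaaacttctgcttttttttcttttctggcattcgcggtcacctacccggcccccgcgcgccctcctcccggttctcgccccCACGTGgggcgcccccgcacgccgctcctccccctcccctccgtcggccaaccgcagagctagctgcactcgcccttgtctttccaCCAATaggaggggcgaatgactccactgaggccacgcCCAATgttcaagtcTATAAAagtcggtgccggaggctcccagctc
EGR1 has 2 CArG boxes, the serum response element core, that begin 105 and 83 bases before the start. GADD45B has TATAAA from 31 bases before the start, CCAAT from 82 and from 45, and CACGTG from 168. The motifs searched were the TATA box (TATAAA), the E-box (CACGTG), the GATA motif (AGATAA), the GC box (GGGCGG), the CCAAT box (CCAAT), the cyclic AMP element (TGACGTCA), the AP-1 site (TGACTCA) and, by name, the CArG box, on both strands of the RefSeq window of 300 bases, 50 of them after the start. A CArG box can hold the letters of a TATA box, and no other of these motifs holds another. TATAAA was in 5 of the 18 windows found for the 32 genes with a mean of at least 100 reads that were past 2-fold higher, which is 27.8%. It was in 2.4% of 125 windows of genes lower, in 5.40% of 6299 windows of measured genes of that depth and in 12.1% of all 27305. A CArG box was in 1 of the 18 windows (EGR1) and in 1.08% of the 6299 measured. CACGTG was in 3 of the 18 (16.7%) and 11.3% of the measured windows, and CCAAT in 6 (33.3%) and 38.4%. GGGCGG was in 50% of the windows of higher genes, 71.2% of those of lower genes and 71.7% of the measured ones. A match describes these letters and not a bound site.

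Immediate-early transcription factors, genes switched on within minutes of a signal without new protein, went in both directions. Of 24 measured, EGR1 included, 4 were past 2-fold higher and 4 lower, with a median log2 ratio of -0.08 (0.25 with TMM scaling). With TMM scaling 8 were higher and 2 lower (FOSB and FOSL2). Of all genes measured, 1.34% were higher and 5.03% lower, and with TMM scaling 2.68% and 1.72%. IER5, a co-regulator of heat shock factor, had 3255 reads under JQ1 and 924 under DMSO, a ratio of 2.65 (interval 2.47 to 2.86). JUN, a subunit of the dimeric AP-1 factors, had 2146 and 655, a ratio of 2.47 (interval 2.26 to 2.7). IER5L, a relative of IER5, had 84 and 16. JUNB (1050 against 415 reads, log2 ratio 0.93) and FOS (118 against 47, log2 ratio 0.91) were just short of 2-fold and passed it with TMM scaling (1.26 and 1.24). On the other side stood FOSB, a Fos protein that pairs with Jun proteins in AP-1, with 321 reads under JQ1 and 682 under DMSO, FOSL1 with 176 and 304, FOSL2 with 21 and 44, and MAFK with 306 and 469. FOS and JUN relatives that pair in AP-1 were thus split, with JUN higher and FOSB, FOSL1 and FOSL2 lower. FOSB had 2 reads at 0 h, so it was higher in both arms after the change of medium, and its level under JQ1 was 35.5% of that in DMSO (interval 31.0% to 40.6%). Its level was 565 in this DMSO library, 200 under JQ1 and 1.35 at 0 h.

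Signalling inhibitors that are themselves induced by the pathway they damp were also split, with 2 of 28 past 2-fold higher and 4 lower (median -0.27, 0.06 with TMM scaling). With TMM scaling TNFAIP3 was the 1 member still lower, and the 2 higher passed again. The shares of all genes were 1.34% higher and 5.03% lower, and with TMM scaling 2.68% and 1.72%. SOCS3, which blocks JAK-STAT signalling, had 589 reads under JQ1 and 156 under DMSO, a ratio of 2.84 (interval 2.38 to 3.42), with the later log2 ratios 0.92 and 1.09. ID2, an inhibitor of basic helix-loop-helix factors, had 364 and 125 reads and returned to a log2 ratio of -0.17 at 8 h. TNFAIP3, the ubiquitin-editing inhibitor of NF-κB, had 98 and 207 reads, 35.7% of DMSO (interval 27.8% to 45.6%), with -1.40 and -2.17 later. SOCS5 (35 against 60 reads), SOCS6 (50 against 76) and NFKBIE (68 against 104) were the other members lower. PIM1, a STAT5-driven kinase, and CISH were not past 2-fold, with log2 ratios of -0.78 and -0.55. Among 14 growth-arrest genes of the GADD45, SERTAD, BTG, TOB and PNRC families, GADD45B, SERTAD1 and PNRC1 were higher and BTG3 and SERTAD3 lower. With TMM scaling TOB1 was also higher and none was lower. The shares of all genes given above apply to these counts too. SERTAD1 had 725 and 238 reads, a ratio of 2.3 (interval 1.98 to 2.67), and had log2 ratios of 1.54 and 1.503 at 4 and 8 h.

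HEXIM1 and the histone gene H2BC21 differed in unlabelled RNA. HEXIM1 (chromosome 17, 45148502 to 45152101) had 955 reads under JQ1, 449 under DMSO and 462 at 0 h. At 4 and 8 h it had 2521 and 3928 reads under JQ1 and 630 and 1000 under DMSO, and with AZ-5576 it had 268, 135 and 83 at the 3 times. The ratio of total RNA was 1.6 (interval 1.43 to 1.8), which is not past 2-fold, while with TMM scaling its log2 ratio of 1.01 is. In unlabelled RNA it was 2.28 (interval 1.95 to 2.67) and in labelled RNA 0.962 (interval 0.807 to 1.15). On the fly scale the added HEXIM1 reads were thus unlabelled. The labelled share of HEXIM1, which needs no fly scale, was 30.9% under JQ1 (interval 28.0% to 33.9%) and 51.4% under DMSO (46.7% to 56.2%). H2BC21, a histone H2B gene of the cluster on chromosome 1, had 366 and 145 reads and a labelled share of 28.96% against 64.83%. Its unlabelled log2 ratio was 1.93 and its labelled one -0.24. Of 12 measured genes from a list of those raised by BET inhibitors, 3 were past 2-fold higher and none lower in total RNA (GADD45B, TUBB3 and SERTAD1), and 5 higher in unlabelled RNA. With TMM scaling HEXIM1 and H2BC21 passed in total RNA as well, making 5. Of all genes, 1.34% were higher in total RNA (2.68% with TMM scaling) and 1.74% in unlabelled RNA. The list median at 2 h was 0.47, and it was 1.56 and 2.25 in the later libraries. Of the 13 polyadenylated histone genes none was past 2-fold in total RNA at 2 h, but H2BC21 was with TMM scaling (1.26), and it was also the 1 member past 2-fold in unlabelled RNA. Their medians were 0.12, 0.55 and 1.25 at the 3 times. Because histone genes have near-identical copies, reads may be split between them. All values of these lists can only be set beside the medians of all genes, -0.33, -0.29 and -0.31, since the lists were chosen with results of these data known.

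TUBB3, a β-tubulin best known from neurons, FGF18, a secreted growth factor, LSMEM1, a small membrane protein, and METRNL, a secreted meteorin-like protein, were higher at all 3 times. TUBB3 had 279 reads under JQ1 and 61 under DMSO, a ratio of 3.45 (interval 2.6 to 4.62), and later log2 ratios of 2.49 and 2.97. FGF18 had 309 and 82 reads with 2.93 and 2.27 later, LSMEM1 342 and 93 with 1.99 and 1.91, and METRNL 82 and 24 with 1.30 and 1.31. As with HEXIM1, the labelled share was lower under JQ1 in FGF18 (26.9% against 51.2%) and in LSMEM1 (29.8% against 49.5%). LINC00641, a long noncoding RNA, had 259 and 58 reads, but its ratio was 0.53 on the log2 scale by 8 h. C1orf162 had 137 and 37 reads and was at -0.19 by 8 h. AP000692.2, an antisense RNA, had only 27 and 7 reads at 2 h and reached log2 ratios of 3.25 and 6.03. Whether the authors counted by strand is not stated in the labels, so antisense genes are uncertain. RPL12P19, a processed pseudogene of a ribosomal protein, completed the 12 largest rises with 470 and 106 reads. It had -0.07 and 0.19 later, and reads of such copies can move between near-identical genes. Pseudogenes made up 7 of the 32 genes higher at this depth. Over all depths 4.13% of 968 pseudogenes were past 2-fold higher, against 0.835% of 9823 protein-coding genes. Past 2-fold lower were 5.48% and 4.63%. Long noncoding genes had 3.17% higher and 9.28% lower. Genes with few reads pass more often, and the part of depth in these shares was not tested.

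**Figure D2:**
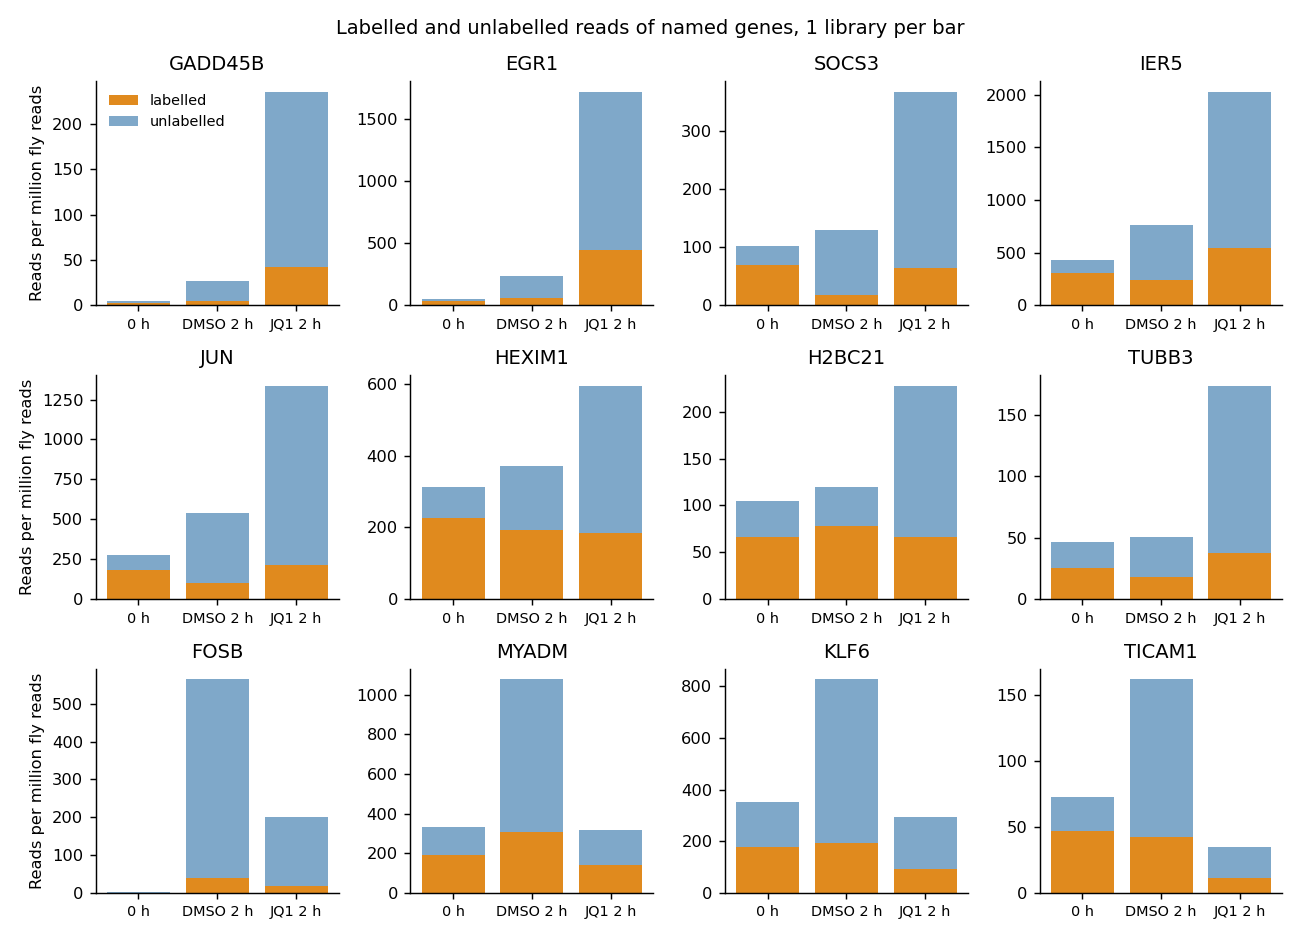
Reads per 1000000 fly reads of 12 named genes are stacked as labelled (orange) and unlabelled (blue) RNA at 0 h and at 2 h with DMSO or JQ1, with 1 library per bar and a vertical axis of its own for each gene, starting at 0. In HEXIM1 and H2BC21 the blue part is larger under JQ1 while the orange part is not, and in MYADM, KLF6 and TICAM1 the DMSO bar stands above both others.

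Among the protein-coding genes of this depth, TICAM1, ZBTB7B, MYADM, PELO and PCGF1 had the lowest ratios under JQ1, and the DMSO levels of TICAM1, ZBTB7B and MYADM were above those at 0 h. MYADM, a membrane protein of myeloid cells (chromosome 19, 53866223 to 53876437), had 508 reads under JQ1, 1301 under DMSO and 492 at 0 h. At 4 and 8 h it had 591 and 273 reads under JQ1 and 1158 and 1303 under DMSO, and with AZ-5576 it had 550, 506 and 528. Its level was 317 under JQ1, 1077 in DMSO and 332 at 0 h, so the DMSO library stood apart and the JQ1 library was near the start. The level under JQ1 was 29.4% of DMSO (interval 26.5% to 32.6%), and the log2 ratio was -1.38 at 4 h and -2.24 at 8 h. TICAM1, the adaptor protein of Toll-like receptor 3, had 56 and 196 reads, 21.5% of DMSO (interval 15.7% to 29.1%), with -1.72 and -2.02 later. ZBTB7B, a zinc finger transcription factor, had 91 and 240 reads, 28.6% of DMSO (interval 22.2% to 36.5%), with -1.16 and -1.66 later. These 3 genes were lower at every time and on both scales.

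PCGF1, a Polycomb group ring finger protein, had 102 and 255 reads and the later log2 ratios -1.40 and -0.46. PELO, which rescues stalled ribosomes, had 115 and 290 with -1.52 and -0.64. KBTBD7, an adaptor of a cullin 3 ubiquitin ligase, had 62 and 141 with -1.53 and -0.30. MIR142HG, the host of the blood-cell microRNA miR-142, had 166 and 362 with -0.86 and -1.01. The host transcript of the miR-23a cluster, MIR23AHG, had 260 and 598 reads and was back at -0.06 and 0.20. PIP4P1, a phosphoinositide phosphatase, had 67 and 166 reads with -0.15 and -0.47, and C5orf63 had 92 and 201 with -0.13 and -0.52. The long noncoding RNA AC024267.1 had 18 and 73 reads with -2.84 and -2.65. RPL35AP33, another processed pseudogene, had the lowest value at this depth, with 66 reads against 443, and was at -0.28 and -0.09 later. Of the 12 largest falls, MIR23AHG, PIP4P1, C5orf63 and RPL35AP33 thus lay between -0.52 and 0.20 on the log2 scale at both later times.

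Krüppel-like factors other than KLF1, zinc finger regulators that include several early-response genes, had 3 of 6 measured members past 2-fold lower, where 5.03% of all genes were, and a median of -1.02 (-0.69 with TMM scaling). With TMM scaling KLF16 no longer passed (-0.92). KLF6 had 472 reads under JQ1 and 1000 under DMSO, 35.6% of DMSO (interval 31.8% to 39.7%). KLF11 had 110 and 261, and KLF16 had 398 and 714. All 3 were also past 2-fold lower in labelled and in unlabelled RNA. KLF11 had a level of 33.8 at 0 h, 216 in DMSO and 68.6 under JQ1. KLF3 and KLF9 had log2 ratios of -0.78 and -0.66, and KLF10 had 0.00. At 8 h KLF6 was at -0.04, while KLF11 and KLF16 were at -1.13 and -1.35.

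MYC and the erythroid regulators, apart from E2F2, did not pass 2-fold at this time. MYC had 137 reads under JQ1 and 193 under DMSO, 53.5% of DMSO (interval 42.6% to 66.9%), which is short of 2-fold and compares with log2 ratios of -2.52 at 4 h and -1.67 at 8 h. Its level was 237 at 0 h and 160 in DMSO at 2 h, and its reads in DMSO were 193, 444 and 1252 at 2, 4 and 8 h, against 137, 103 and 390 under JQ1. None of the 12 measured genes of the MYC network, MYC included, was past 2-fold. Of 25 measured erythroid and leukaemia transcription factors, all 25 were below DMSO, where 82.4% of all genes were. With TMM scaling 18 were below, against 49.0% of all genes. E2F2, a cell cycle factor of erythroid precursors, was the 1 past 2-fold lower (294 against 445 reads), where 5.03% of all genes were. That call ended with TMM scaling (-0.67). KLF1, the master factor of red cell genes, had a log2 ratio of -0.86, GATA2 -0.76, GATA1 -0.65, NFE2 -0.55, MYB -0.49, TAL1 -0.48 and LMO2 -0.47. Their list median of -0.47 went to -0.66 at 4 h and -1.13 at 8 h. NFE2 in particular reached -1.78 and -3.44, and KLF1 -1.67 and -3.37. BCL2L1, which encodes the survival protein BCL-XL, was the member of 14 apoptosis genes past 2-fold lower, with 570 and 883 reads and 48.6% of DMSO (interval 43.7% to 54.1%). With TMM scaling BCL2L1 no longer passed (-0.71), and 1 of 14 is near the share of all genes lower, 5.03%. MCL1, another survival gene of the family, had a log2 ratio of 0.09.

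The targets of JQ1 and the elongation machinery showed no member past 2-fold among 33 in total RNA, with a median of -0.32 (0.01 with TMM scaling), although HEXIM1 passed with TMM scaling. BRD2 had a log2 ratio of -0.16 and BRD3 -0.27, and BRD2 then went to 0.37 and 1.28. HEXIM1 had the highest value of the list.

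Of 40 genes for ribosome assembly, a process that MYC drives, 2 were past 2-fold lower and none higher, which is the share of all genes (5.03%), with a median of -0.49 (-0.16 with TMM scaling). BYSL, needed for the small subunit, had 626 and 1103 reads, 42.8% of DMSO (interval 38.7% to 47.2%), and PES1, needed for the large subunit, had 376 and 614. Neither passed with TMM scaling (-0.89 and -0.78). Numbered zinc finger genes, most of which encode DNA-binding repressors with short-lived mRNAs, had 50 of 302 past 2-fold lower (16.6%) and 1 higher (ZNF425, 34 against 2 reads). Their median was -0.55 (-0.22 with TMM scaling), and with TMM scaling 22 were lower and 3 higher. These genes have few reads, with a median mean of 97.5 against 225 over all genes, and genes with few reads pass more often. With a mean of at least 100 reads, 11 of 148 were lower (7.43%), against 2.02% of 8203 genes, and the median was -0.51 against -0.33. Of the labelled reads that they had at 0 h, 41.5% were left at 4 h in DMSO in the median zinc finger gene, against 66.1% over all genes measured. ZNF689 (131 against 234 reads), ZNF16 (125 against 225) and ZNF48 (92 against 167) also had log2 ratios of -2.33, -1.04 and -1.31 at 4 h. In contrast ZNF776, with 52 and 127 reads, was at -0.52 and 0.45 later.

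Several other groups had few or no members past 2-fold. The 78 cytosolic ribosomal protein genes had a median of -0.33 with 1 past 2-fold lower (RPL17), and 64 oxidative phosphorylation genes had -0.25 with none. The 11 mitochondrially encoded mRNAs had -0.43, 20 integrated stress response genes -0.30 and 23 sterol synthesis genes -0.33, all with none past 2-fold. The 18 heat shock chaperones also had none past 2-fold, but their median was -0.08 against -0.33 for all genes. With TMM scaling 1 of 18 was below DMSO, where 49.0% of all genes were. The RPL17 call ended with TMM scaling (-0.74). With TMM scaling the medians of 15 of the 27 lists changed sign, among them the oxidative phosphorylation list at 0.08. The fetal globin gene HBG2 had -0.18, the embryonic HBZ -0.76, and the housekeeping genes ACTB, GAPDH and RPLP0 -0.23, -0.60 and -0.22.

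**Figure D3:**
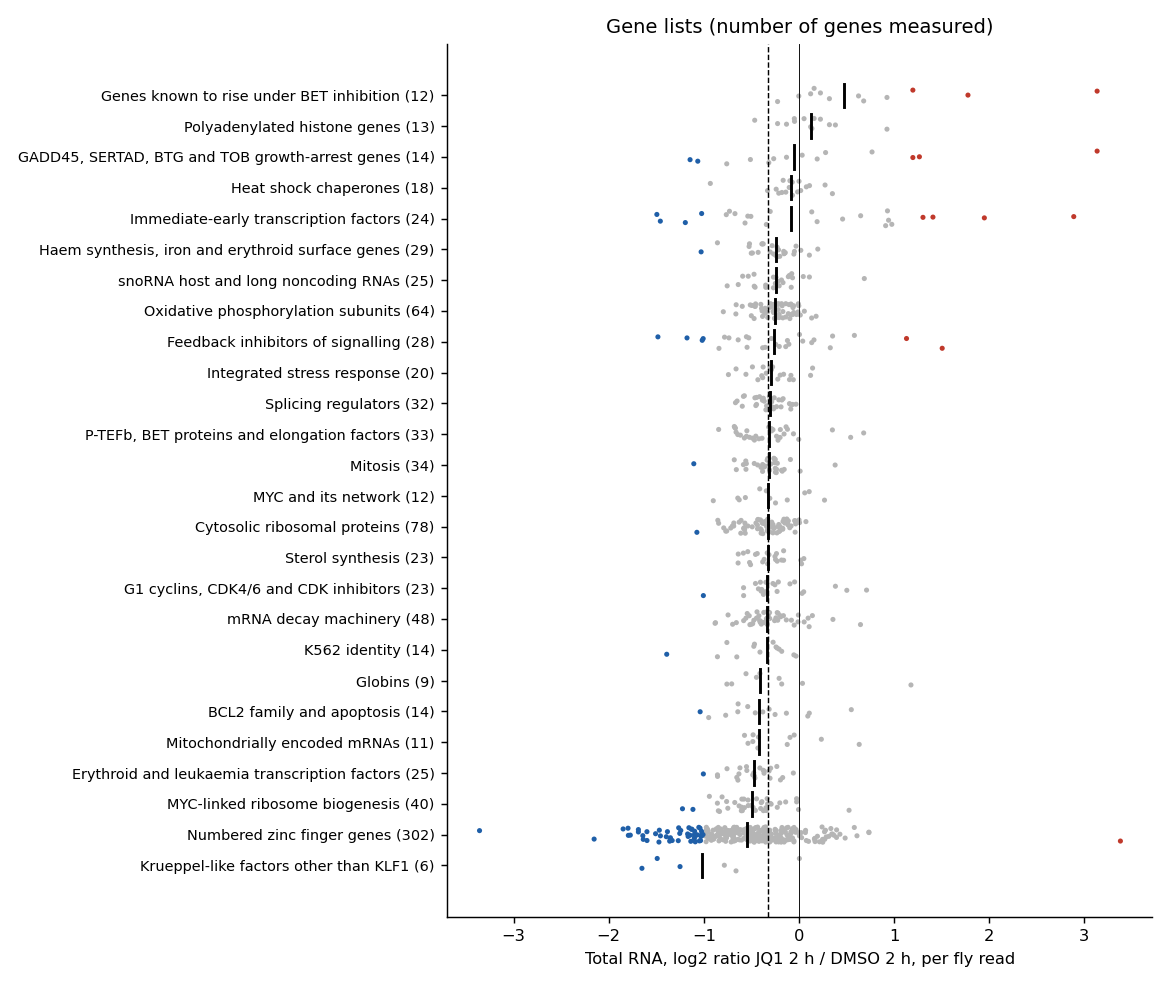
Each point is a measured gene of the list named at the left (number of genes in brackets), placed by its log2 ratio of total RNA between JQ1 and DMSO at 2 h per fly read, with red and blue for genes past 2-fold. Black bars are list medians and the dashed line is the median of all genes, -0.33, near which most bars lie. The list of genes raised by BET inhibitors (0.47) and the Krüppel-like factors (-1.02) are at the ends.

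Labelled and unlabelled RNA were then compared, with the limit that the rule for calling a read labelled is not stated and that labelled EGR1 reads appeared during the chase, so labelled RNA is not RNA of the pulse alone. Over the 8698 genes measured in both, the log2 ratios had Pearson's r of 0.28 and Spearman's rho of 0.28, a description across genes that share the 2 libraries. Among genes past 2-fold higher in total RNA, 26 had enough reads of both kinds. Of these, 23 were past 2-fold in unlabelled and 12 in labelled RNA, with medians of 1.38 and 0.90. Among 199 such genes lower, 185 were past 2-fold in unlabelled and 79 in labelled RNA, with medians of -1.34 and -0.93. The genes were chosen by total RNA, the sum of both kinds, in which 29.1% of the reads were labelled. The unlabelled part therefore weighs more in that choice, and the 2 counts cannot show which kind responded more. Among genes higher at 2 h, JUN (1.12 labelled and 1.34 unlabelled) and SOCS3 (1.79 and 1.45) had like ratios in both, as EGR1 did. TUBB3 (1.02 and 2.07), LSMEM1 (0.73 and 1.93) and FGF18 (0.57 and 2.08) had the larger ratio in unlabelled RNA. HEXIM1 and H2BC21, not past 2-fold in total RNA, had labelled log2 ratios below 0 on the fly scale. Both were above the labelled median of all genes, -0.28. That median was -0.02 with TMM scaling, so the sign of these 2 labelled ratios rests on the scale. The labelled level of SOCS3 was 68.9 at 0 h, 18.2 in DMSO and 64.2 under JQ1.

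**Figure D4:**
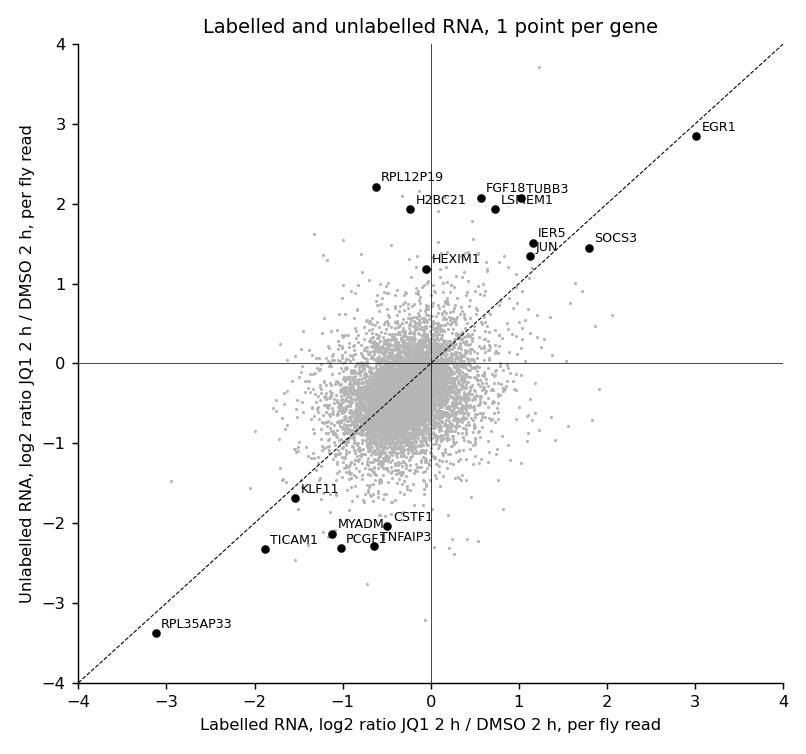
Each point is 1 of 8698 genes, with its log2 ratio of JQ1 to DMSO at 2 h per fly read in labelled RNA on the horizontal axis and in unlabelled RNA on the vertical axis. The dashed line marks equal ratios: EGR1, JUN and SOCS3 lie near it, whereas H2BC21, HEXIM1, FGF18 and LSMEM1 lie above it and CSTF1, PCGF1 and TNFAIP3 below it.

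The labelled share of a gene's reads needs no fly scale and was called different past 10 percentage points with exact intervals that did not overlap. It was higher under JQ1 in 566 genes (4.8%) and lower in 254 (2.15%), and the median difference over the genes measured in total RNA was 1.09 points. In the 566 the median log2 ratio was -0.96 in unlabelled and 0.12 in labelled RNA. In the 254 it was 0.36 and -0.75. Which of the 2 kinds has the larger ratio is fixed by the choice of genes by share, so these medians describe only the levels. Of the 566 genes, 178 (31.4%) were also higher in share at 4 h and 1 lower, and they are 10.2% of the 1747 genes higher there, which are 14.8% of all genes. At 8 h 44 of the 566 were higher, where 5.72% of all genes were. Of the 254, 13 (5.12%) were also lower at 4 h, where 0.848% of all genes were, and 18 were higher. At 8 h 6 of the 254 were lower, where 0.534% of all genes were. CSTF1, a cleavage stimulation factor of mRNA 3′ ends, had a share of 71.9% under JQ1 and 46.5% under DMSO, a difference of 23.0 points at 4 h, and an unlabelled log2 ratio of -2.04. TNFAIP3 had 63.3% and 35.3%, with 48.8 points at 4 h. MYADM had 44.7% and 28.5%, with 17.2 points at 4 h. The largest rises in share, with at least 100 reads, were those of TRIOBP (57.7% against 20.8%), FAM120C (53.9% against 21.2%), GPANK1 (55.6% against 23.6%), KLHL23 (72.4% against 42.3%), TMED8 (63.9% against 34.1%) and PPIL4 (59.5% against 30.1%). Of these 6, KLHL23 had a difference above 10 points at 4 h (20.3). The largest falls besides H2BC21 included CHUK (25% against 67.2%), TRIM66 (24.2% against 62.8%) and BCDIN3D (22.1% against 53.3%). At 4 h their differences lay between -1.11 and 2.14 points.

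Turnover was set beside the response through 5 equal classes of the 8817 genes with enough labelled reads, by the labelled level at 4 h in DMSO as a percentage of that at 0 h. These classes use neither library of the 2 h pair. In the last class the label left had a median of 100.4% and ran up to 1027%. Many of its genes thus had no less labelled RNA at 4 h than at 0 h, so that class is not a measure of slow turnover alone. The median log2 ratio of total RNA was -0.43 in the class that lost most label, then -0.37, -0.33 and -0.30, and -0.24 in the class that kept most. Genes past 2-fold lower numbered 98, 36, 26, 19 and 26, which is 5.56% of the first class and 1.47% of the last. In unlabelled RNA 12.9% of the first class and 4.31% of the last were lower. Over genes, Spearman's rho between label left and the ratio was 0.21 for total, 0.20 for unlabelled and 0.10 for labelled RNA, again a description across genes of 1 pair of libraries. The first class also had fewer reads, with a median mean of 230 against 348 in the last and 635 in the fourth. The part of depth in the difference was not tested. By gene length the medians had no steady order, with -0.27, -0.38, -0.36, -0.33 and -0.24 from the shortest to the longest of 5 classes and a rho of 0.04. The share of genes lower, though, was 6.63%, 6.24%, 5.17%, 4.02% and 3.04% in that order.

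The 4 h and 8 h libraries of JQ1 and DMSO are separate libraries of the same arms and were used to see which 2 h values came back. Of the 158 genes higher in total RNA, 76 (48.1%) were past 2-fold higher at 4 h and 49 (31.0%) at 8 h, which is 24.5% and 12.4% of the lists of those times, where 2.63% and 3.34% of all genes were higher. Of the 593 lower, 200 (33.7%) were lower at 4 h and 203 (34.2%) at 8 h, which is 20.6% and 11.6% of the later lists, with 8.23% and 14.8% of all genes lower. In the opposite direction stood 3 and 16 of the higher genes and 13 and 14 of the lower ones. Over all genes Pearson's r between 2 h and 4 h was 0.40 for total, 0.45 for unlabelled and 0.07 for labelled RNA. Of the 55 genes higher in labelled RNA at 2 h, 5 were higher at 4 h, where 2.22% of all genes were, and 9 at 8 h (4.4% of all). Of the 281 lower, 23 were lower at 4 h (1.66% of all) and 27 at 8 h (4.45%). Of the 192 genes higher in unlabelled RNA, 92 were higher at 4 h (2.62% of all) and 64 at 8 h (3.21%), and of the 940 lower, 418 were lower at 4 h (15% of all) and 332 at 8 h (17.2%). At a mean of at least 100 reads, 11 genes were higher and 12 lower at all 3 times and on both scales. The higher ones were GADD45B, TUBB3, FGF18, AP000692.2, LSMEM1, IER5, METRNL, TNFSF9, SERTAD1, GCNA and KLHL15. The lower ones with a symbol were AC024267.1, TICAM1, ZBTB7B, MYADM, MKS1, VPS37B, TNFAIP3, ZNF507, RHBDD3, PMM2 and NRROS. The lists of 11 and 12 came from that rule after the values were known, and EGR1 is not among them because its ratio was 0.51 at 8 h. The mean includes the JQ1 libraries, so a gene high under JQ1 can reach 100 reads through them, as GADD45B did.

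**Figure D5:**
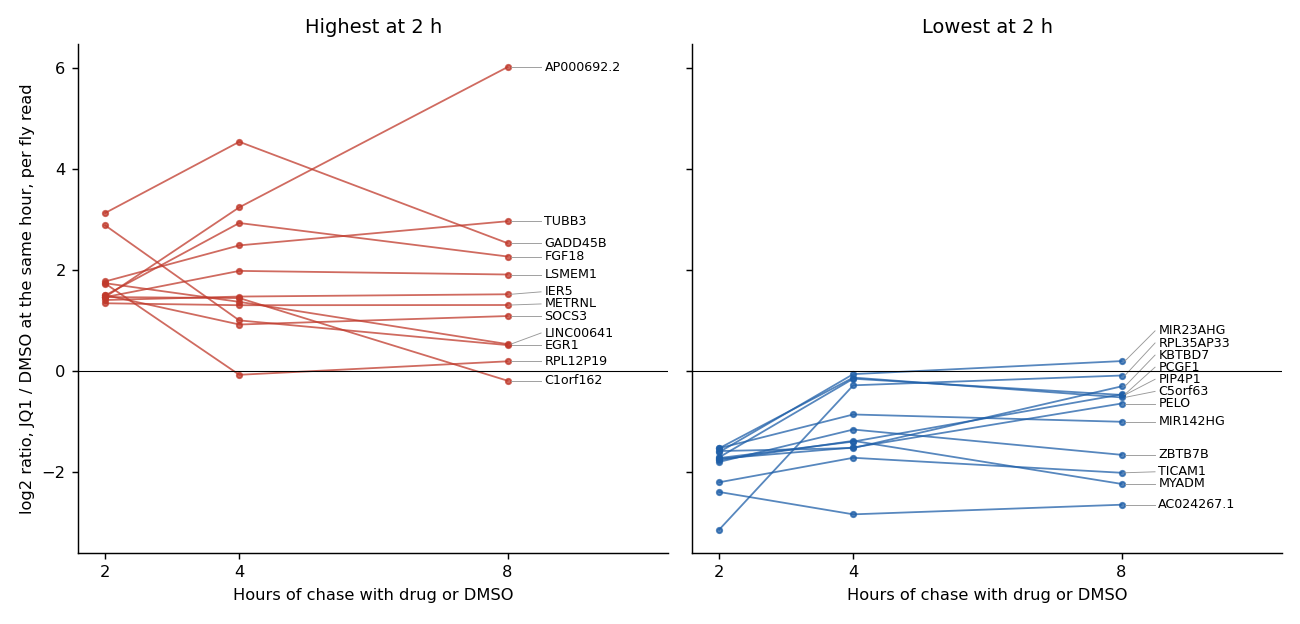
The log2 ratio of total RNA between JQ1 and DMSO at the same hour, per fly read, is drawn over 2, 4 and 8 h for the 12 genes highest (red) and the 12 lowest (blue) at 2 h among those with a mean of at least 100 reads. Each point compares 2 libraries. GADD45B, TUBB3, FGF18 and LSMEM1 stayed above 1.9 after 2 h, whereas RPL12P19, RPL35AP33 and MIR23AHG came close to 0.

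AZ-5576, which acts on CDK9 itself, was read against the same DMSO library at 2 h, and its values are set beside those of JQ1 without a comparison. EGR1 had a log2 ratio of 2.89 under JQ1 and -2.93 under AZ-5576, GADD45B 3.13 and -2.49, SOCS3 1.505 and -6.14, JUN 1.30 and -1.70, IER5 1.41 and -1.59, and HEXIM1 0.68 and -0.92. Among genes low with JQ1, the 2 values were as follows in TICAM1 (-2.21 and -1.996), MYADM (-1.76 and -1.41), KLF11 (-1.65 and -2.73) and FOSL1 (-1.20 and -1.88). TUBB3 had 1.78 and -0.02, and FGF18 1.499 and 0.34.

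With 1 library a side no test of the treatment exists. As the closest substitute, edgeR's quasi-likelihood fit gave the 2 libraries free levels and took the spread from the other 8 libraries about a straight line per arm, which has 4 residual degrees of freedom and assumes that the 2 libraries vary like the others. No gene passed a Benjamini-Hochberg adjusted p of 0.05 in total RNA, where 653 of 11797 had an unadjusted p below 0.05 (5.54%), or in unlabelled RNA, where 535 did (4.83%). DESeq2 with the same fly scale called none in either. EGR1 had an adjusted p of 0.089 in edgeR (log2 difference 2.89, SE 0.52) and MYADM 0.36 (-1.76, SE 0.38). In labelled RNA, where 5.65% had an unadjusted p below 0.05, edgeR called 1 gene each way (0.0113%): EGR1, with a log2 difference of 3.02 (SE 0.44, adjusted p = 3.3e-08), and RPL35AP33, with -3.13 (SE 0.39, adjusted p = 4.4e-12). The 2-fold threshold itself is passed narrowly by ZNF777 (-1.02), HOXB4 (-1.02), GTF3C4 (-1.01) and ZYX (-1.001) and missed narrowly by RPL10P3 (-0.99), R3HDM4 (-0.99) and DTL (-0.98).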

How the data were processed

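As deposited, the 3 tables hold unnormalised counts for each gene, of all human reads, of reads named nascent (taken here as labelled) and of fly reads. The tools and builds in the submitters' processing notes are Trim Galore 0.6.5, bedtools, bcl2fastq 2.17.1.14, hg38 and dm6. The rule for a labelled read, the aligner and the counter are not given in the sources used here. Counts were divided by each library's fly read total. Genes needed a mean of at least 20 total reads, and for labelled or unlabelled RNA also of 20 such reads. Symbols matched 55381 identifiers. Positions are from GENCODE 29. Ratios and shares had exact 95% intervals (scipy 1.17.1). edgeR 4.0.16 and DESeq2 1.42.0 ran in R 4.3.3. Reads lack molecular identifiers.

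Named genes were the 12 largest rises and falls past 2-fold in total RNA with a mean of at least 100 reads, 6 each way in labelled RNA (4 rises qualified), unlabelled RNA and labelled share, a panel of 31, and list members past 2-fold. The remaining Krüppel-like factors, BRD3, the genes at the threshold and the genes of the 3 times were named after their values were seen. The comparison, members and 27 lists were chosen with earlier results of these data known. The CArG box was added to the 7 motifs after the promoters were seen. The edgeR fit was tested on simulated counts, with levels flat over time and less spread than was fitted in these libraries. DESeq2 was not tested in this way.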

Additional observations from a re-analysis of the deposited data

How the results depend on the processing

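No paired analysis was possible because each condition has 1 library. For the same reason no replicate could be left out. The number of genes past 2-fold (751 in total, 336 in labelled and 1132 in unlabelled RNA) depended on depth and fold. With a mean of at least 100 reads it was 198, 31 and 373, and with 1.5-fold 2731, 1581 and 3313. Labelled RNA gave 630 with a mean of at least 10 reads, 204 with TMM scaling (119 higher, 85 lower) and 209 with human library size. Unlabelled RNA gave 747 with TMM scaling (418 higher, 329 lower). Genes past 2-fold at both 2 h and 8 h numbered 252, and 165 with TMM scaling.

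edgeR calls in total RNA, 0 in the design chosen, were 7 without the read minimum, 4 without the 4 h libraries and 6 without the 8 h libraries. In labelled RNA the 2 calls became 1 with TMM scaling and with DESeq2 on either scale, and 9 without the AZ-5576 libraries. Unlabelled RNA, with 0, gave 1 with DESeq2's own size factors, 6 without the read minimum, 1 without the 4 h and 3 without the 8 h libraries. The cause was not tested. The other 29 alternatives for these summaries stayed within 1.5 times of the count or within the spread allowed for a value. These limits are on the count in both directions together: the split of total RNA, 158 higher and 593 lower, was 316 and 203 with TMM scaling and 291 and 223 with human library size. In unlabelled RNA the split of 192 and 940 was 353 and 410 with human library size, and in labelled RNA that of 55 and 281 was 131 and 78. Of 147 named genes, 6 changed sign with TMM scaling, none of them past 2-fold on the fly scale.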

Other observations

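Of the genes measured, 4 had no read under DMSO at 2 h and at least 12 under JQ1, and none had the reverse. They were chosen after their values were seen. FGG, a fibrinogen chain gene of liver, had 85 reads under JQ1, at least 21.3-fold more per fly read than a floor of 3 reads in the DMSO library allows. It also had 2 reads at 0 h, 3 and 2 with AZ-5576 at 2 and 4 h, and between 76 and 142 in the other 5 libraries. BCL11B, a T-cell transcription factor gene, had 52 reads under JQ1, at least 13.1-fold more, with 2 at 0 h, 0 with AZ-5576 at 2 and 4 h, and between 46 and 77 in the other 5 libraries. Both genes were thus at 0 to 3 reads in the same 4 libraries, the start, DMSO and AZ-5576 at 2 h and AZ-5576 at 4 h, and the source of their reads in the other 6, carry-over between libraries included, was not tested. The liver marker ALB had 2 reads under JQ1 and 3 under DMSO, and CD3E had none in either. LASP1NB had 15 reads under JQ1 and 0 under DMSO at 2 h, then 89 against 11 at 4 h and 118 against 8 at 8 h. RN7SL827P had 12 and 0, and 169 with AZ-5576 at 8 h.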
